A study of Mus musculus with 5 samples.

Results

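In haematopoietic stem and progenitor cells of inv(16) mouse bone marrow, 555 of 20661 protein-coding genes on chromosomes 1 to 19 had an ATAC-seq peak at a gene end in every library with both Smc3 alleles and in no library heterozygous for Smc3. A gene counted when a peak overlapped the interval within 1 kb of either end of the annotated gene in all 3 Smc3-wt lists and in neither Smc3-het list. That is 2.69% of the genes. The genes were therefore chosen by the presence and absence of peaks in these same lists, and neither is a finding; the peak heights in the Smc3-wt lists belong to the same contrast and are given as a description with no test. The reverse pattern, a peak in both Smc3-het lists and in no Smc3-wt list, was met by 8 genes (0.0387%).

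All 5 libraries came from lineage-depleted bone marrow of mice that carried Mx1-Cre and inv(16) and had been treated with PIPC, a synthetic double-stranded RNA that induces interferon and so turns on the Mx1 promoter that drives Cre. The 2 Smc3-het libraries had the genotype Smc3 D/+ and the 3 Smc3-wt libraries Smc3 +/+. Mx1-Cre is active in many tissues besides blood, and Mx1-Cre, inv(16) and PIPC are shared by both groups, so the comparison is of Smc3 dosage on that background. Neither the ages of the mice nor whether each library came from its own mouse is stated by the labels, so the spread between libraries may be technical. ATAC-seq marks DNA that a transposase can reach, and since the cells were assayed in bulk, fewer cells with an open gene end cannot be told apart from a less open end in every cell.

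Smc3 is a subunit of cohesin, the ring that extrudes chromatin loops and stops at bound CTCF, and thereby brings enhancers near promoters. Promoters fall broadly into CpG islands, which are open in most tissues, and CpG-poor starts, which tend to be open only where the gene's lineage is. Genes of embryonic patterning are often CpG islands as well, held silent in adult blood by Polycomb complexes. In leukaemia with inv(16), CBFB, the partner of the transcription factor RUNX1, is fused to MYH11.

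The lists differed in length. Smc3-het 1 and 2 had 26885 and 36467 peaks, and Smc3-wt 1, 2 and 3 had 65880, 102822 and 121224. A gene end carried a peak for 10393 and 10788 genes in Smc3-het and for 12103 to 13441 genes in Smc3-wt. Background coverage, the commonest local background that the authors' peak caller had used, covered each base with 3.59 and 2.92 fragments for Smc3-het and with 2.74, 1.93 and 3.02 for Smc3-wt. The weakest peak of each list stood 2.98 to 3.63 times above it, so the lowest peaks were of like height over background. That background applied to 19.8% and 43.7% of the peaks of Smc3-het 1 and 2. In Smc3-wt 1, 2 and 3 it applied to 46.9%, 59.7% and 59.2%. The other peaks were called against another local background, so a like threshold for them is not shown. Among the progenitor genes Runx1, Tal1, Lmo2, Meis1, Flt3 and Spi1 had an end peak in all 5 lists, Kit lacked it in Smc3-het 1, and Cd34 and Hlf lacked it in Smc3-het 2. Gata2 lacked it in Smc3-het 2 and Smc3-wt 1, Fli1 had it in Smc3-het 2 and Smc3-wt 1 alone, and Mecom had none in any list. Of 21 T and NK cell genes, 3 had an end peak in each Smc3-het list and 4, 5 and 11 in the Smc3-wt lists; Cd3e, and the liver gene Alb, had none in any list. Of 18 stromal and endothelial genes, 3 and 5 had one in the Smc3-het lists and 8 in each Smc3-wt list. Smc3 itself had an end peak in all 5 lists, which checks no genotype, since a peak list does not show the loss of 1 allele.

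The 300 bases around the annotated start, 250 before it and 50 from it on, are shown for 5 of these genes from RefSeq (GRCm38.p6, the build also called mm10), each on its + strand and read 5′ to 3′. Sec22b, Akr1c13 and Plaat3 are the strongest with a symbol that is neither provisional nor an olfactory receptor's, whose region lay over 20 kb from any Smc3-het peak and overlapped these 300 bases; they were picked after their values were seen. Sec22b encodes a membrane-fusion protein of the endoplasmic reticulum, Akr1c13 an aldo-keto reductase and Plaat3 a phospholipase. Their windows are chr3:97900977-97901276, chr13:4190937-4191236 and chr19:7557209-7557508. Capitals mark every match to 10 motifs searched on both strands.
Sec22b: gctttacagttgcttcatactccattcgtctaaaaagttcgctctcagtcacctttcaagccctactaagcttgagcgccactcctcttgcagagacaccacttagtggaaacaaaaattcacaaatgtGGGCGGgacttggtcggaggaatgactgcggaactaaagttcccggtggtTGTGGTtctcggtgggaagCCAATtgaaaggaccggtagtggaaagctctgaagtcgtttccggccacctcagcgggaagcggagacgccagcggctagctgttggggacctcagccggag
Akr1c13: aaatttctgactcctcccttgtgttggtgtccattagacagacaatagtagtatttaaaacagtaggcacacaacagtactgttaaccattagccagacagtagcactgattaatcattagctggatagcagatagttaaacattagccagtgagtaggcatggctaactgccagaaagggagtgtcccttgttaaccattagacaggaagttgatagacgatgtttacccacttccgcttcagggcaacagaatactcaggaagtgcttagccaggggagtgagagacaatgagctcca
Plaat3: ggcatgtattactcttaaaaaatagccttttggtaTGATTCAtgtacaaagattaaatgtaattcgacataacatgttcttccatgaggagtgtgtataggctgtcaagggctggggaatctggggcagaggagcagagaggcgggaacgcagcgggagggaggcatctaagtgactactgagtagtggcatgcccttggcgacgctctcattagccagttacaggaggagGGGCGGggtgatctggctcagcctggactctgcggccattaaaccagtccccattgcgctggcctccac
The CpG observed over expected ratio was 0.753 at Sec22b with 16 CG pairs, 0.461 at Plaat3 with 9 and 0.141 at Akr1c13 with 2. The capitals in Sec22b are a GC box, a RUNX motif and a CCAAT box. Those in Plaat3 are an AP-1 motif and a GC box. No searched motif was in the Akr1c13 window. Arrdc3 and Zfp605 are, in contrast, among the 12 strongest of all 555, and a Smc3-het peak lay within 2 kb of each. Arrdc3 encodes an arrestin-like adaptor of ubiquitin ligases and Zfp605 a zinc finger protein. Their windows are chr13:80883134-80883433 and chr5:110109842-110110141.
Arrdc3: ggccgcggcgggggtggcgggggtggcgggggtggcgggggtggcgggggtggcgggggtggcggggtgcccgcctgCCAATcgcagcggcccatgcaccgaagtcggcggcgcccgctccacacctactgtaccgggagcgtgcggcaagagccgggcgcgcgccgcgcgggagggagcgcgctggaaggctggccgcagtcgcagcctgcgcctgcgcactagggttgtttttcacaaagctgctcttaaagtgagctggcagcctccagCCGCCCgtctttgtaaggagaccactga
Zfp605: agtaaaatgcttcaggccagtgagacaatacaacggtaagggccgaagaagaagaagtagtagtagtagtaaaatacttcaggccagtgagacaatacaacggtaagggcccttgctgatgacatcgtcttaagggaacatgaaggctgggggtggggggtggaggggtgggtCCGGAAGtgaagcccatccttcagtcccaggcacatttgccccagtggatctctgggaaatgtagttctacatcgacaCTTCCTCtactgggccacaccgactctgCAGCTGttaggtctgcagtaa
Arrdc3 has 35 CG pairs in the 300 bases and a ratio of 0.904, with a CCAAT box and a GC box. Zfp605 has 7 and a ratio of 0.365, with an ETS motif, a PU.1 motif and an E-box.

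Most of the 555 gene ends carried peaks in the upper 50% of their own lists, but lower ones than gene ends open in all 5 lists. The height of the strongest peak at either end, as summit pileup over the library background, had a median of 7.29 in Smc3-wt 1, 8.83 in Smc3-wt 2 and 8.27 in Smc3-wt 3. The quartiles were 5.47 to 9.84, 6.75 to 11.4 and 6.28 to 11.9. In fragments, the median summit held 20, 17 and 25. At least 5 times the background in every Smc3-wt list was reached by 397 genes (71.5%), and at least 10 times by 67 (12.1%). Within its own list the median member's peak ranked at 41.6%, 30.2% and 25% from the top, with 11, 29 and 38 members in the top 10% and 223, 146 and 114 in the lower 50%. Per gene, the highest of the 3 values was 1.63 times the lowest in the median. Smc3-wt 1 gave the highest value for 90 genes, Smc3-wt 2 for 232 and Smc3-wt 3 for 233.

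The 9424 genes with an end peak in all 5 lists stood far higher, with medians of 28.8, 30.6 and 39.0 in Smc3-wt 1, 2 and 3. At those genes the medians were 13.1 and 16.4 in Smc3-het 1 and 2, below every Smc3-wt library. Between them and the 555 lay the 913 genes found in all 3 Smc3-wt lists and in 1 Smc3-het list, with medians of 9.84, 11.9 and 12.2 in Smc3-wt, and of 6.40 and 7.19 in the Smc3-het list that held them. Of these 913, 317 were in Smc3-het 1 and 596 in Smc3-het 2. Genes in 2 Smc3-wt lists and no Smc3-het list, 949 in all, had medians of 5.83, 6.75 and 5.95. The 555 genes thus stood low against the 9424: 31, 23 and 26 of them exceeded the lower quartile of the 9424 genes in Smc3-wt 1, 2 and 3. The lower pileup over background of the Smc3-het libraries at gene ends open in all 5 moves with the absence of a peak at the 555, and its part in that absence was not tested.

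**Figure D1:**
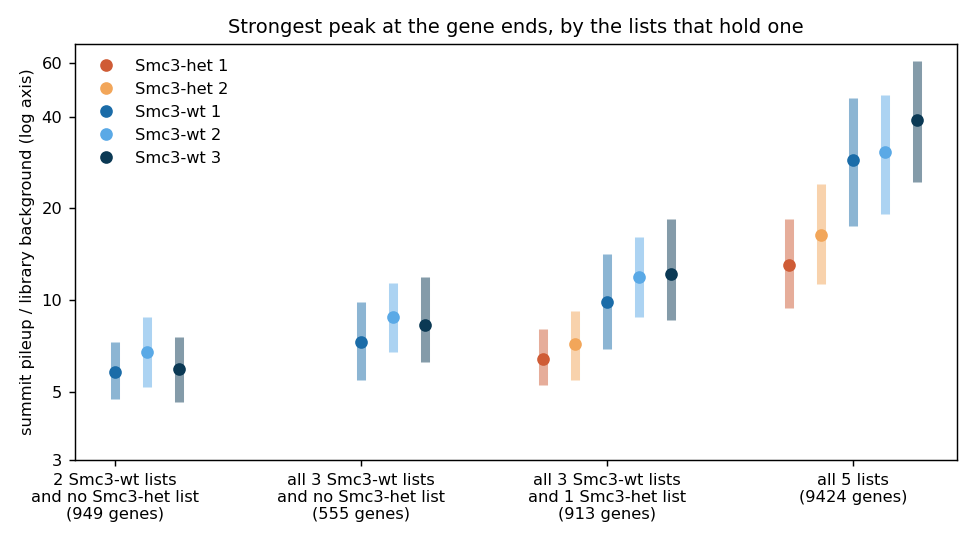
Summit pileup over library background (log axis) of the strongest peak at a gene's ends, for 4 classes of genes by the lists that hold an end peak; points are medians, bars run from the lower to the upper quartile over the genes with a peak, and colours are libraries. In Smc3-wt 1, 2 and 3 the 555 genes have medians of 7.29, 8.83 and 8.27, between the genes of 2 Smc3-wt lists and those also held by a Smc3-het list.

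The pattern depended on list length. In lists shortened to the same length, that is the top 26885 peaks by −log10 p, 110 genes met the rule (0.532%) and 85 met its reverse (0.411%). Of the 110, 94 belonged to the 555. Among the 555, the shortened Smc3-wt lists held an end peak in all 3 for 94 genes, in 2 for 144, in 1 for 173 and in none for 144.

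The 555 genes occupied 497 separate places, since 109 of them lay within 100 kb of another and formed 51 groups. For 392 (70.6%) a region of overlapping peaks at an end was called in all 3 Smc3-wt lists. The other 163 (29.4%) met the rule with different peaks in different lists, sometimes at opposite ends of the gene. The 392 shared 377 regions, of which 15 served 2 genes each. Their median heights in the common region were 7.65, 9.35 and 9.26 in Smc3-wt 1, 2 and 3, and the 163 had 5.83, 6.75 and 6.28. Of the 94 genes that met the rule in lists of the same length, 92 had a common region.

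Where the genes' peaks lay in relation to the start could be read for the 419 genes (75.5%) whose strand is in the promoter table. Peaks of the Smc3-wt lists lay at the start alone in 214 (51.1%), at the far end alone in 37 (8.83%) and at both in 168 (40.1%). A start peak in all 3 Smc3-wt lists was present in 292 (69.7%), against 86.1% of the genes also held by 1 Smc3-het list and 97.1% of those in all 5. These shares follow from the lists that chose the classes and have no test. The strongest start peak had its summit 189, 153 and 148 bp downstream of the start in the median in Smc3-wt 1, 2 and 3, and 39.9% to 42.7% of summits fell within 250 bp of the start. A further annotated start more than 1 kb inside the gene was listed for 108 of the 419, and 65 of these 108 had a Smc3-het peak there, 42 in both Smc3-het lists. For these genes an open inner promoter in Smc3-het is outside what the rule reads.

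The neighbourhood of the 555 regions in the Smc3-het lists was mixed. For 49 genes (8.83%) a Smc3-het peak overlapped the region but stopped outside the 1 kb window, 36 in Smc3-het 1 and 39 in Smc3-het 2, with 26 in both. Those peaks ended a median of 165 bp and 123 bp from the window and reached 7.38 and 9.24 times the background in Smc3-het 1 and 2, where the Smc3-wt lists had 13.1, 15.1 and 17.2. For 152 genes (27.4%) the nearest Smc3-het peak lay apart from the region and within 5 kb, and for 354 (63.8%) none lay within 5 kb. For 175 (31.5%) the nearest was over 20 kb away. The 3 settings differed in height: the median was 12.4, 12.5 and 17.2 in Smc3-wt 1, 2 and 3 for the 49 genes, 7.65, 9.09 and 9.26 for the 152, and 6.56, 8.31 and 7.60 for the 354. The local background that the peak caller used at the common region, relative to the library background, had medians of 2.11, 1.56 and 1.11 in the 3 settings.

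**Figure D2:**
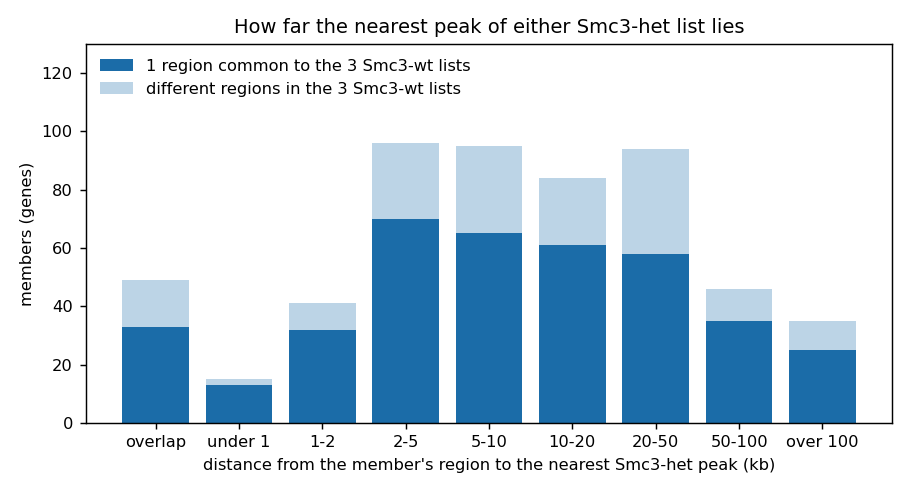
Number of the 555 genes (bars) by the distance in kb from their region to the nearest peak of either Smc3-het list; dark bars are genes with a region called in all 3 Smc3-wt lists and pale bars genes whose Smc3-wt peaks lie in different regions. In 49 genes a Smc3-het peak overlaps the region itself, and in 175 the nearest lies over 20 kb away.

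Just inside the window's limit were 25 of the 555 genes with a Smc3-het peak of the same region at most 100 bp outside it, at a median of 12.3 times background. Just past the limit were 46 genes of all 3 Smc3-wt lists whose Smc3-het peaks all reached at most 100 bp into the windows, at a median of 12.8. At the limit of peak calling, 44 of the 555 had a −log10 q under 2 in their weakest Smc3-wt list.

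Of the 12 genes with the highest peaks, 8 were of the kind where a Smc3-het peak of the same region stopped short of the window. Zfp369, a zinc finger gene on chromosome 13, was the highest. Its summit pileup was 343, 244 and 389 fragments in Smc3-wt 1, 2 and 3, which is 127 times background in the median library and 129 in the highest. Peaks of the same region in Smc3-het 1 and 2 reached 30.9 and 50 times background and began 31 bp outside the window. Zfp369 thus met the rule by the window's edge while its region was called in all 5 lists.

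Kat6b, a histone acetyltransferase, stood at 68.5, 65.4 and 86.6 times background in Smc3-wt 1, 2 and 3, with Smc3-het peaks of 42.6 and 41.7 at 18 and 27 bp from the window. Lmbrd1, a lysosomal protein needed for vitamin B12 export, stood at 79.5, 81.0 and 106, with Smc3-het peaks of 19.2 and 37.3. Abcc4, an efflux pump for cyclic nucleotides, stood at 63.1, 62.8 and 81.7, with 18.9 and 33.9. The Smc3-het values were below every Smc3-wt value at these 3 genes. Ipo8, an importin, Tprgl, Poc1a, a centriole protein, and Dync2h1, the motor heavy chain of intraflagellar transport, were of the same kind. Poc1a, however, had no common region, with 49.6, 5.19 and 54.6 in Smc3-wt 1, 2 and 3. The Smc3-wt 2 value was from the far end. Its peak in the start region reached 62.8 times background but lay outside the window.

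Lig1, the ligase that joins Okazaki fragments, and Rpl22, a ribosomal protein, ranked high by a start peak that not all 3 Smc3-wt lists had within the window. At Lig1 the strongest end peak was 71.4, 75.8 and 5.62 times background in Smc3-wt 1, 2 and 3, but the region common to all 3, at the far end, had 6.20, 10.4 and 5.62. At Rpl22 the strongest was 42.3, 10.9 and 57.2, and the common far-end region had 5.10, 10.9 and 8.93. Their place among the highest 12 comes from mixing the ends. Both Smc3-het lists had a peak at a further annotated start inside Lig1 and inside Rpl22. The distance to the nearest Smc3-het peak, 7242 bp for Lig1 and 5904 bp for Rpl22, was taken from the far-end region. Both therefore count among the 354 genes with none within 5 kb.

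Arrdc3 and Zfp605, whose starts are printed above, had a region of their own with no overlapping Smc3-het peak. Arrdc3 stood at 43.4, 35.8 and 50.9 times background in Smc3-wt 1, 2 and 3, and the nearest peaks of Smc3-het 1 and 2 were 1623 and 1158 bp away. Zfp605 stood at 37.2, 19.2 and 49.6, with Smc3-het peaks 1603 and 1585 bp away. The local background there was 12.2 and 8.21 times the library background, higher than the 2.11 typical of regions that a Smc3-het peak overlapped.

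At the other extreme, Rasgrp3, Ifnl2, Pcdhb10, Aldh1b1, Krt4 and Spata13 had the lowest peaks, with medians over the Smc3-wt lists of 3.63 to 4.15 times background. Ifnl2, a type III interferon, had summit pileups of 11, 7 and 14 fragments in Smc3-wt 1, 2 and 3, close to the lowest pileups in those lists, 9, 7 and 9. None of the end regions of these 6 genes had a Smc3-het peak within 5 kb, and only 1 gene, Ifnl2, had a common region. Inside the gene, both Smc3-het lists had a peak at a further annotated start of Rasgrp3 and of Spata13.

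Of the 175 genes whose region lay over 20 kb from any Smc3-het peak, 118 had a common region, on 114 regions. Sec22b had 38, 32 and 57 fragments at the summit in Smc3-wt 1, 2 and 3, or 13.8, 16.6 and 18.8 times background, and the nearest Smc3-het peak lay 27293 bp away. Akr1c13 had 9.11, 14.0 and 14.2, and Plaat3 had 5.10, 14.0 and 19.2. Nrp2, a receptor for semaphorins and VEGF, had 7.65, 17.1 and 13.2 at its start. Sucnr1, the succinate receptor, had 11.7, 17.7 and 13.2 just upstream of its start, and Ttl, the tubulin tyrosine ligase, 13.1, 9.35 and 15.2. Ido1, a tryptophan-degrading enzyme induced by interferon, had 8.38, 22.3 and 11.2. Smc3-wt 1 was the lowest of the 3 libraries at Sec22b, Akr1c13, Plaat3, Nrp2, Sucnr1 and Ido1. Nrp2, Sucnr1, Ttl and Ido1 were chosen as examples after their values were seen.

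Among 16 lists of marker and pathway genes, 9 held members, 14 genes in all. Only Car1 and Cr2 of the 14 met the rule in lists of the same length, 8 had a common region, and 10 had a separate Smc3-het peak within 5 kb. Car1, the carbonic anhydrase of early erythroid cells, had 33, 37 and 55 fragments at the summit in Smc3-wt 1, 2 and 3, which is 12, 19.2 and 18.2 times background. Its nearest Smc3-het peak lay 2633 bp away, in Smc3-het 2. Of the 21 erythroid genes in the table, Car1 was the 1 member (4.76%), while 9 had an end peak in all 5 lists.

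Cr2, the complement receptor of B cells and follicular dendritic cells, had 44, 36 and 42 fragments, or 16.0, 18.7 and 13.9 times background, and the nearest Smc3-het peak lay 1676 bp away, in Smc3-het 1. Cd79b, a signalling chain of the B cell receptor, had 4.74, 7.27 and 13.6, in no common region. They were 2 of 16 B cell genes (12.5%). The B cell list as a whole had end peaks at 5 and 4 genes in the Smc3-het lists and at 5, 11 and 10 in the Smc3-wt lists, so Smc3-wt 1 held no more than Smc3-het 1.

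Of 21 megakaryocyte and platelet genes, Pf4 and Itgb3 were members (9.52%). Pf4, the platelet chemokine, had 14.6, 8.31 and 19.5 times background at its start in Smc3-wt 1, 2 and 3, with a Smc3-het 2 peak 2731 bp away. Itgb3, the beta chain of the platelet fibrinogen receptor, had 8.38, 11.4 and 8.93, and a Smc3-het 1 peak of 5.01 times background overlapped its region 167 bp outside the window. The whole list had end peaks at 6 and 12 genes in the Smc3-het lists and at 13, 16 and 14 in the Smc3-wt lists.

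Esam, Thy1 and Hoxb4 were members of the 20 stem cell genes (15.0%). Esam, an adhesion molecule of stem and endothelial cells, had 7.65, 11.9 and 8.27 times background. Hoxb4, a homeobox gene that expands stem cells when overexpressed, had 5.83, 12.5 and 5.62 at its start, with Smc3-het peaks 2735 and 2877 bp away. Thy1, a surface glycoprotein, had 6.56, 4.67 and 6.28 with no common region. The list had end peaks at 7 and 9 genes in the Smc3-het lists and at 13, 14 and 14 in the Smc3-wt lists.

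Among 24 granulocyte and monocyte genes, Prtn3 and Csf1r were members (8.33%). Csf1r, the receptor for macrophage colony-stimulating factor, had 5.10, 6.75 and 7.27 times background in Smc3-wt 1, 2 and 3, with Smc3-het peaks 1783 and 2049 bp away. Prtn3, a granule protease of neutrophil precursors, had 13.5, 7.27 and 7.27, at its far end alone. The mast cell protease gene Cma1, the endothelial sialomucin gene Emcn and the ETS factor gene Ehf were the 1 member of their lists, with 4.37, 5.71 and 7.60, with 4.37, 10.4 and 4.96, and with 8.02, 4.15 and 13.2. None of these 3 had a common region.

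Of the 24 genes on the interferon response list, a response that PIPC sets off, only Ddx58 was a member (4.17%), and 16 had an end peak in all 5 lists. The list is a selection: Ido1, also induced by interferon, met the rule without being on it. Ddx58, which encodes the RNA sensor RIG-I, had 11.7, 8.83 and 9.92 times background. No gene of the T and NK cell, dendritic cell, cohesin and CTCF, core binding factor leukaemia, transcription factor heptad, housekeeping or other-organ lists met the rule. Each list is a selection, so this absence holds for the listed genes alone. Immune genes such as Icos and Xcl1 met the rule without being on a list. For 11 of 13 housekeeping genes the end peak was in all 5 lists. These shares are counts beside the 2.69% of all genes and were not tested.

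**Figure D3:**
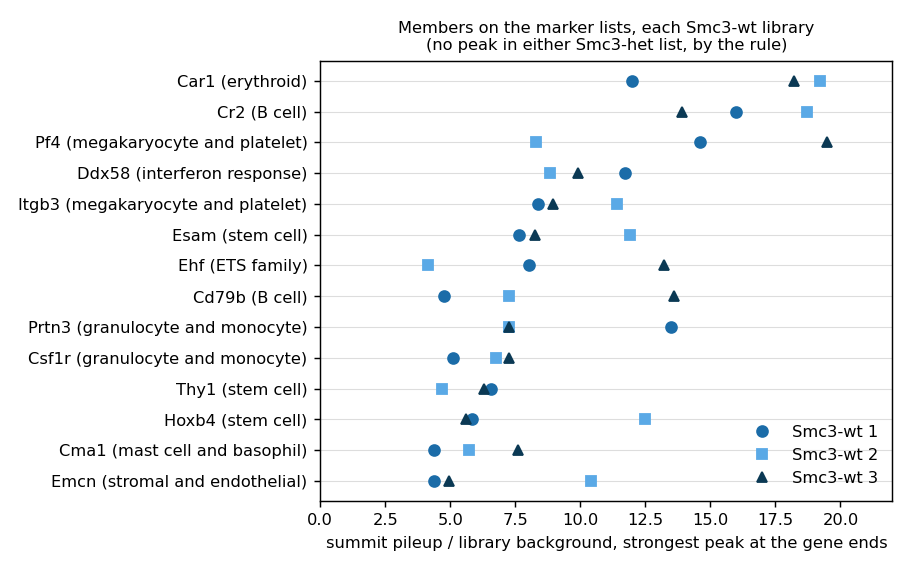
Summit pileup over library background (linear axis) of the strongest peak at the gene ends for the 14 genes on a marker or pathway list, named in brackets; circles, squares and triangles are Smc3-wt 1, 2 and 3. Car1 and Cr2 lie above 10 in all 3 libraries, and most other genes lie between 4 and 14.

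Grouped by patterns in the gene symbol, 183 of the 555 genes fell into 1 of 26 families and 372 had other names. A gene whose symbol does not match its family's pattern is counted under other names. The shares below are therefore of matching symbols. They can leave out members of a family and can count in genes of another kind. Of 24 families with at least 50 genes, 13 had a share above the 2.69% of all genes and 11 below. The highest share by symbol was in the interleukin, interferon and tumour necrosis factor family and its receptors, with 11 of 157 genes (7.01%). That count includes Il4i1, an enzyme matched by its symbol, and the homeobox share of 6.67% was close. The members include Tnfsf4, the ligand of OX40 on T cells, at 9.11, 10.9 and 10.6 times background in Smc3-wt 1, 2 and 3, and Tnfsf11, the RANK ligand that drives osteoclasts, at 7.65, 8.83 and 6.28. Tnfrsf8, which encodes CD30, had 9.11, 7.79 and 18.2 at its far end. The interleukin receptor genes Il10ra, Il21r and Il20rb also belonged to it. In the accounts of families, functions and neighbours, the values of Tnfsf11, Cxcl2, Cxcl3, Ccr2, Sox2, Tbr1, Wnt2b, Nog, Bmp2, Ncam2, Reln, Chrna7, Ccdc39 and Gas8, and of the pairs of genes that share a region, are examples chosen after their values were seen.

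Chemokines and their receptors gave, by symbol, 4 of 61 genes (6.56%). This leaves out the platelet chemokine gene Pf4, which fell under other names. Cxcl2 and Cxcl3, ligands that attract neutrophils, had 6.20, 10.9 and 10.6 and 8.02, 11.9 and 15.9 times background at their starts on chromosome 5. Ccr2, the receptor that lets monocytes leave the marrow, had 7.29, 8.83 and 9.92, and Xcl1 was the fourth. Lectins and other leukocyte receptors gave, by symbol, 11 of 244 (4.51%), among them Clec4a1 at 11.3, 13.0 and 10.2. The count also takes in other surface proteins, such as Cd9 and the enzyme Cd38 at 6.56, 13.5 and 7.93.

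Homeobox, Pax, Pou and Sox genes gave, by symbol, 10 of 150 (6.67%). In the family so defined 8.0% had an end peak in all 5 lists. Dbx2, Lhx9, Six5, Lhx2, Sox2, Hoxd13, Nkx2-2, Hoxb4, Pou3f2 and Hoxc11 were the members with a matching symbol. This leaves out the homeobox genes Shox2, Isl1, Meox2 and Tlx2, which also met the rule but fell under other names. Dbx2, a factor of spinal cord interneurons, had 14.2, 9.87 and 13.2 times background in Smc3-wt 1, 2 and 3. Lhx9, needed for gonad formation, had 11.7, 9.35 and 11.9. Six5 had 10.9, 10.9 and 12.9, and Smc3-het peaks of 6.68 and 6.5 overlapped its region 224 and 226 bp outside the window. Sox2, the pluripotency and neural stem cell factor, had 5.47, 11.4 and 8.60 with no common region. Forkhead, T-box and bHLH factors gave 5 of 103 (4.85%), led by Foxq1 at 5.47, 13.0 and 15.9 with the nearest Smc3-het peak 50839 bp away.

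Ion channels gave 10 of 195 (5.13%), led by Cacna2d1, Clcn4 and Cacna1s. Cytochromes P450, conjugating transferases and other enzymes grouped with them by symbol gave 10 of 232 (4.31%). Among them was Ugt8a, the galactosyltransferase of myelin lipids, at 12.8, 10.4 and 12.2 times background. Ces2f, Akr1c13 and Aldh1b1 in this count are neither cytochromes P450 nor transferases. Zinc finger genes (11 of 471, 2.34%), solute carriers (9 of 376, 2.39%) and proteases with their inhibitors (10 of 331, 3.02%) were near the share of all genes. Olfactory receptors were below it, with 7 of 1100 (0.636%), and 76.3% of that family had no end peak in any list. No vomeronasal receptor of 352 and no histone gene of 79 met the rule, the former with 82.4% in no list and the latter with 84.8% in all 5. The share of a family among the 555 therefore stood beside how many of its ends were open anywhere, and no family was tested.

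**Figure D4:**
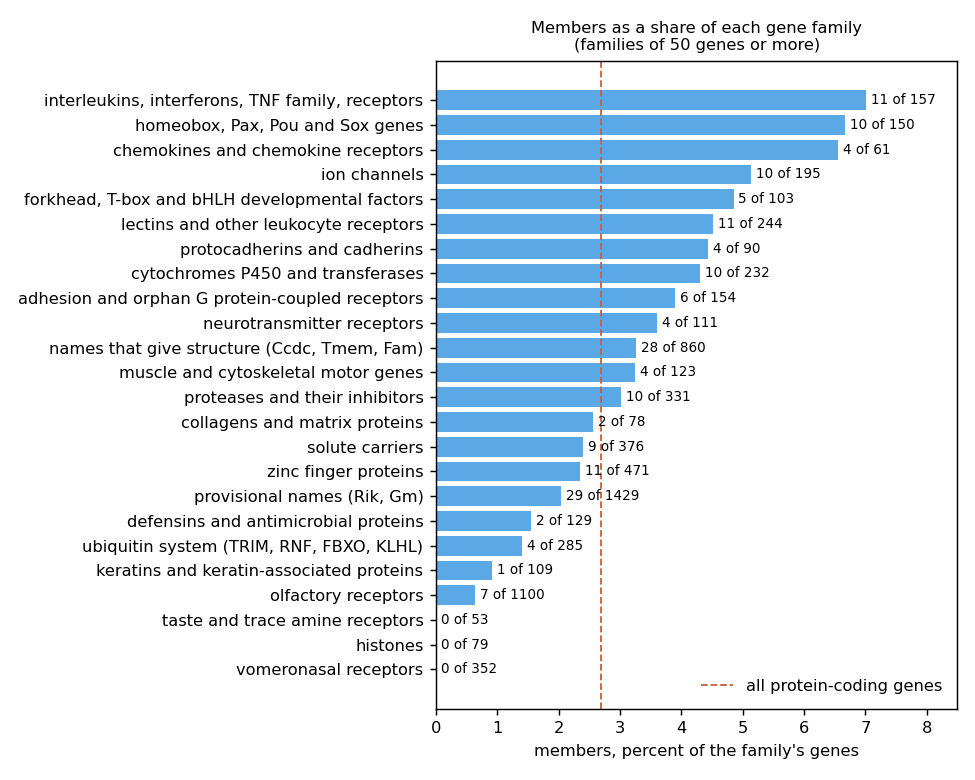
Members as a percent of the genes of each family (linear axis from 0), for the 24 families with at least 50 genes; numbers at the bars are members of genes, and the dashed line is the 2.69% of all protein-coding genes. Families are set by gene symbol alone, so a bar can include genes of another kind. Cytokine, homeobox and chemokine genes so defined lie at 6.56% to 7.01%, and olfactory receptors at 0.636%.

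By known function, groups put together from the 555 names after these were known gave 61 genes of blood and immune cells, 37 of neurons and synapses, 25 transcription factors of embryonic development, 23 genes for processes of every cell, 14 secreted signals of embryonic patterning with receptors and antagonists, and 13 genes of cilia. Having been drawn from the members, these counts have no background share. The median over the genes of the middle Smc3-wt value was 8.02 for blood and immune genes, 6.92 for neuronal genes, 7.79 for developmental factors and 9.15 for the signals. It was 11.4 for cilia and 13.5 for the processes of every cell, the group to which Lig1, Kat6b, Ipo8 and Rpl22 belong. In lists of the same length the rule was met by 94 of all 555 genes (16.9%). It was met by 14 of the 61 blood and immune genes and 11 of the 23 genes of every cell. In the other groups, in the order above, it was met by 3 of 37, 2 of 25, 1 of 14 and 3 of 13. A Smc3-het peak overlapped the region, outside the window, for 5 of the 61 and 4 of the 23, beside 8.83% of all 555. These counts were not tested.

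No Smc3-het peak lay within 5 kb of the region for 19 of the 25 developmental factors and 9 of the 14 signals, beside 63.8% of all 555 genes. Tbr1, a factor of cortical neurons, had 12.8, 14.0 and 11.6 times background in Smc3-wt 1, 2 and 3. The Smc3-wt 1 value was from the far end, and the common region at the start had 8.75, 14.0 and 11.6. Wnt2b, a Wnt ligand, had 8.02, 16.1 and 17.2 at its start, and Nog, which encodes the BMP antagonist noggin, had 7.29, 9.87 and 10.2. The common region of Nog had 6.20, 9.87 and 10.2, with the nearest Smc3-het peak 156434 bp away. Bmp2 had 9.11, 17.7 and 17.2 with no common region. Peaks of both Smc3-het lists overlapped the region of its Smc3-wt 3 value. In that region Smc3-wt 1 and 2 had peaks of 18.2 and 35.8 outside the window. Of the neuronal genes, Ncam2, an adhesion molecule of axons, had 17.9, 13.5 and 9.92, Reln, the matrix protein that guides cortical layering, 6.20, 7.27 and 11.6, and Chrna7, a nicotinic receptor subunit, 5.83, 6.75 and 4.63. Of the cilia genes, Ccdc39, needed for the inner dynein arms, had 12, 8.31 and 12.9, and Gas8, of the nexin-dynein regulatory complex, had 10.6, 14.5 and 15.2. The order of the 3 Smc3-wt libraries differed from gene to gene.

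The members were spread over all 19 chromosomes. Chromosome 7 had the most, 58 of 2030 genes (2.86%). As a share of a chromosome's genes the range was 1.51% on chromosome 17, 16 of 1059 genes, to 3.88% on chromosome 14, 33 of 850, with 3.87% on chromosome 3 and 3.70% on chromosome 10. Chromosome 19, which carries Smc3, had 13 of 705 (1.84%), and chromosomes 8 and 16, which carry Cbfb and Myh11, had 33 of 1042 (3.17%) and 15 of 679 (2.21%).

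The largest group of neighbours was Lrrc75b, Ggt1, Ggt5 and Susd2 on chromosome 10, from 75550119 to 75644008. Ggt1 and Ggt5 encode gamma-glutamyltransferases that split glutathione and leukotriene C4. The 4 genes lay on 3 regions, Lrrc75b and Ggt1 sharing the peak between them at 6.92, 5.71 and 5.95 times background in Smc3-wt 1, 2 and 3. On chromosome 7, from 3731626 to 3915571, the receptor genes Pira1, Pira2 and Lilra6 each had a start peak of its own. Pira1 had 9.48, 9.35 and 9.59, Pira2 had 6.56, 6.75 and 8.93, and Lilra6 had 4.01, 5.71 and 5.62.

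These receptor genes are near-identical copies, so reads may be placed on the wrong one, and the treatment of such reads by the authors is not stated. Ugt1a6a and Ugt1a2 on chromosome 1 end at the same base, so a peak at that end counts for both. With Mroh2a they form another group. Ptgir, the prostacyclin receptor that restrains platelets, headed a group on chromosome 7 with Gm42372 and Ccdc8, at 13.1, 18.7 and 15.2. Prkag3, Wnt10a and Cdk5r2 on chromosome 1 had medians of 5.29 to 10.9. Among pairs that shared a region were Mosmo with Pdzd9 at 18.6, 22.3 and 23.8, Rhof with Setd1b at 18.6, 27.0 and 19.5, and Duoxa1 with Duoxa2 at 11.7, 16.6 and 12.2.

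Promoter sequence was not used by the rule. Of the 555 genes, 362 (65.2%) had a RefSeq promoter in the table, under the 80% set as the least for a check over a list, so the check over all 555 is void. It was made for the 292 genes with a start peak in all 3 Smc3-wt lists, of which 254 (87.0%) had one. Their CpG observed over expected ratio had a median of 0.601 (quartiles 0.384 to 0.814). The genes with a start peak in all 3 Smc3-wt lists and end peaks in all 5 had 0.808 (0.661 to 0.937, 7117 genes), and those with 1 Smc3-het list 0.667 (0.415 to 0.831, 551 genes). Genes with no end peak in any list had 0.178 (0.0874 to 0.332, 3629 genes), and all RefSeq promoters of the table had a median of 0.604. A ratio of at least 0.6 was found in 50.4% of the 254 promoters, 81.7% of those open in all 5 lists and 9.07% of those in no list. The 254 promoters thus were a mix of CpG-rich and CpG-poor starts.

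**Figure D5:**
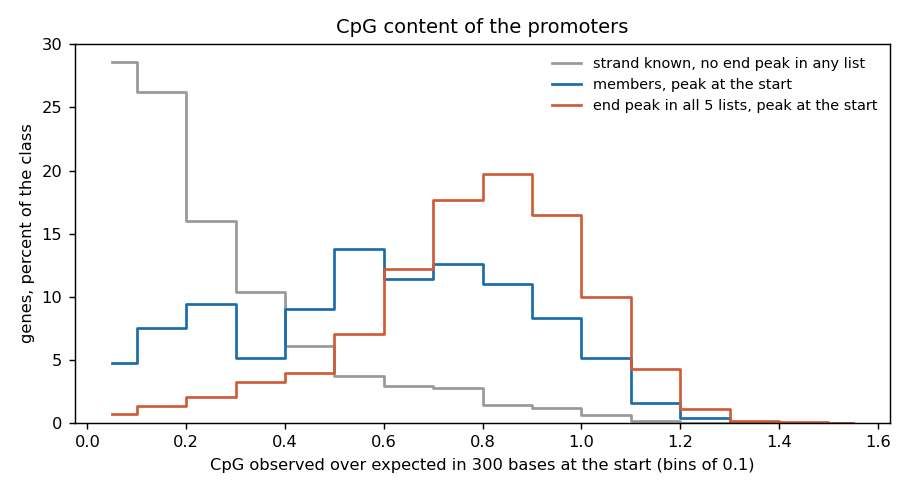
Percent of promoters (steps) in bins of 0.1 of the CpG observed over expected ratio in 300 bases at the start, for genes of no list (grey), the members with a start peak in all 3 Smc3-wt lists (blue) and genes of all 5 lists (red). The members spread from CpG-poor to CpG-rich around a median of 0.601, between 0.178 and 0.808.

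Motif matches were counted on both strands in the same 300 bases. The ETS motif CCGGAAG was in 5.51% of the 254 promoters, 22.1% of those open in all 5 lists, 2.15% of those in no list and 12.4% of all promoters. The GC box GGGCGG was in 56.7%, 69.4%, 14.3% and 47.8%, and the TATA box TATAAA in 13.8%, 6.21%, 28.5% and 13.9%. The CCAAT box, CCAAT, was in 29.5%, 41.0%, 41.3% and 39.4%. AP-1, TGANTCA, was in 8.27%, 3.91%, 11.5% and 7.10%, and AGATAA, the motif of GATA factors, in 9.45%, 5.30%, 17.3% and 9.82%. For RUNX, TGTGGT, the shares were 11.4%, 11.5%, 19.6% and 14.8%, for PU.1, GAGGAAG, 14.6%, 12.3%, 14.1% and 13.1%, for the E-box CAGCTG 14.6%, 12.9%, 15.3% and 14.9%, and for the CTCF core AGGNGGCAG 3.94%, 3.99%, 2.78% and 3.86%. A PU.1 match can overlap an ETS match. A match is only these letters in the window.

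Peaks away from the ends, within the gene or 20 kb on each side, were counted in lists of the same length. The 555 genes had 874 and 852 such peaks in Smc3-het 1 and 2, beside 848, 852 and 878 in Smc3-wt 1, 2 and 3, so the groups overlapped. The rule touches this count, since at the 49 genes whose region a Smc3-het peak overlaps outside the window that peak counts as away from the end and the Smc3-wt peak of the same region does not. With every peak of a region that reaches a window left out, a count added after the data were seen, the totals over the 555 genes were 830 and 806 for Smc3-het 1 and 2, against 836, 833 and 868 for the Smc3-wt lists. Both Smc3-het totals then lay below the 3 Smc3-wt totals, by 3 peaks at the closest. Over all genes the totals were 29331 and 26961 against 28131, 26727 and 28252, which overlapped. In the full lists, which are longer for Smc3-wt, the 555 genes had 874 and 1087 against 2099, 2852 and 3600 peaks outside the windows.

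Counted by gene, both Smc3-het lists exceeded every Smc3-wt list of the same length at 36 of the 555 genes (6.49%), against 4.19% of all genes, and both were below at 29 (5.23%), against 3.38%. With the end regions left out these became 24 genes (4.32%), against 3.95% of all genes, and 34 (6.13%), against 3.50%. The order of the 2 directions thus turned with the count used. The smallest two-sided exact permutation p over the 10 ways to assign 5 libraries to groups of 2 and 3 is 0.2, so no single gene could pass a threshold of 0.05. With all peaks outside the windows counted, 13 of the 84 genes named by the rule given with the methods reached 0.2. Of these, 9 had more peaks in Smc3-het and 4 had fewer. With the end regions left out 8 reached it, 3 with more peaks in Smc3-het and 5 with fewer.

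With the end regions left out, Prss12, a neuronal protease gene, had 1 and 1 such peaks in the Smc3-het lists against 5, 2 and 3 in the Smc3-wt lists, Ipo8 had 0 and 0 against 1, 3 and 2, and Pf4 had 0 and 1 against 2, 3 and 2. Cr2 had 2 and 2 against 1, 1 and 1. The exact permutation p was 0.2 at each of these 4 genes (two-sided, n = 2 and 3), the smallest the design allows. With all peaks outside the windows counted, Ipo8 had 1 and 1 against 1, 3 and 2, with an exact permutation p of 0.6. Prss12, Pf4 and Cr2 kept 0.2 in that count.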

How the data were processed

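The sample titles gave group and replicate number. Per the submitters' processing notes, the authors used Bowtie2, mm10 and MACS2, in versions not given in the sources used here. All deposited lists, 1 per library, hold for each peak the summit coverage signal as fragment pileup and, per the file headers, a fold enrichment, the ratio to the local background. The deposited −log10 p and −log10 q columns had lost their headers and were identified by order and values. All scores are the authors'. The mapped depth was not used; background coverage, solved from pileup and fold with a pseudocount of 1, stands in for it.

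Gene ends came from a RefSeq table of GRCm38.p6, strand and promoters from a second RefSeq table with strand for 16456 of the 20661 genes. An overlap of 1 bp counted, and regions were chains of overlapping peaks of the 5 lists. Python 3.11.15 with pandas 2.3.3 and numpy 2.4.6 was used, and the interval code was tested on simulated data. Of 285 list symbols, 274 were in the gene table. Exact permutation tests ran over the 10 assignments of the libraries. Named genes were the 12 highest and 6 lowest by median pileup over background, list members, the top 3 of each family with at least 5 members, the 5 largest neighbour groups and 8 that also met the rule in lists of the same length; genes outside this rule are marked as chosen after their values were seen. The members, lists and families were chosen with earlier results of these data known. The limits of 5 kb, 20 kb and 100 bp and the groups by function were set after the values were seen. Alternatives were lists of the same length or of 13442 peaks, q and window limits, summits, gene starts only, chromosome X, other peak values and leaving out each library.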

Additional observations from a re-analysis of the deposited data

How the results depend on the processing

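The count of 555 genes depended most on list length and on which libraries were required. It was 110 in lists of the same length (94 shared with the 555) and 77 in lists of 13442 peaks (13 shared). It was 513 and 695 at a −log10 q of at least 5 and 10, with 247 and 64 shared, 432 and 738 within 0.5 and 2.5 kb, with 332 and 390 shared, 468 for summits inside the window, with 427 shared, 328 for gene starts only, and 587 with chromosome X. Chosen after seeing the data, a common region gave 392 and no Smc3-het peak within 5 kb gave 354. The reverse count of 8 became 85, 123, 3, 1, 10, 13, 12, 5 and 8 in that order of settings. Leaving out 1 library gave 721 to 1151 for the rule and 15 to 170 for the reverse. The former was 872 without Smc3-het 1, 1151 without Smc3-het 2, 1046 without Smc3-wt 1 and 847 without Smc3-wt 2, all more than 1.5 times 555, and 721 without Smc3-wt 3; a rule on fewer lists is met more often by construction. The reverse was 170, 109, 15, 22 and 33 in the same order.

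Median pileup over background was 7.29, 8.83 and 8.27 in Smc3-wt 1, 2 and 3. As the authors' fold enrichment it was 4.54, 5.03 and 5.22, and over the 110 genes 11.7, 13.0 and 13.7. The median CpG ratio was 0.601 over members with the peak at the start. The values over all members (0.558, with a promoter for 65.2%) and over members in lists of the same length (0.521, 62.7%) are void, being under 80%. The mean number of peaks away from the ends, Smc3-het minus Smc3-wt, was 3.67 and reversed to -1870 in full lists, to -27.7 with the end regions left out (chosen after the data were seen), to -7.33 without Smc3-het 1 and to -2.0 without Smc3-wt 1, with a range of -7.33 to 14.7 when 1 library was left out. No paired analysis was possible because the library names of the groups share no number and these results are counts over lists. Background coverage of 1.93 to 3.59 fragments per base limits the weakest peaks to 7 to 12 fragments, and the absence of a peak from a list means only that none was called.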
